A study of Mus musculus with 6 samples.

Results

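Cytosines gained in a single haploid line are positions that were unmethylated in round spermatids and in all but 1 of the 5 haploid embryonic stem cell lines measured beside them. A position was counted when it lay on chromosomes 1 to 19, had at least 10 reads in all 6 files and had a level under 10% in round spermatids. Its level also had to be at least 50% in exactly 1 line and under 10% in the other 4. The level is the percentage of reads that kept the cytosine through bisulfite, that is, the methylated share. Of 2088612 positions seen in any file on chromosomes 1 to 19 and X, 227992 on chromosomes 1 to 19 had the 10 reads in every file and are called common cytosines here. Of these, 170428 were under 10% in round spermatids, and 1656 were gained in a single line (0.726% of the common cytosines). The positions were selected on their levels in all 6 files, so these levels are given as a description and none of them was tested.

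The assay was reduced representation bisulfite sequencing (RRBS), in which the enzyme MspI cuts the DNA at CCGG and a size fraction of the fragments is bisulfite converted, amplified and sequenced. The lines are androgenetic haploid embryonic stem cells (AG-haESCs), which carry 1 paternal set of chromosomes. The 3 DKO lines, replicates 1, 2 and 3 at passages 32, 31 and 29, are labelled with deletions of the IG-DMR and H19 DMR, which control imprinting in a pair of gene domains. The 2 WT lines, replicates 1 and 2 at passages 31 and 18, carry neither deletion by their labels. All 5 lines have the C57BL/6 strain label and grew on feeders with 2i, inhibitors of a pair of kinases, added to the ES medium to keep the cells undifferentiated. Round spermatids, the haploid cells that follow male meiosis, were taken from C57BL/6 testis and are a single library. The titles of DKO replicate 2 and WT replicate 1 share the name OG3, and those of DKO replicate 3 and WT replicate 2 share the name AGH-2. The labels do not say whether the lines came from separate embryos. Each line is 1 library, so every level below has no replicate, and Wilson 95% intervals cover counting error only. Reads amplified by PCR without molecular identifiers are not independent molecules.

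In mammals, cytosine methylation sits mostly at CpG, where both strands can carry it and maintenance methylation copies it to the new strand after replication. CpG-dense stretches at gene starts (CpG islands) are usually free of methylation, while most other CpGs of somatic cells and sperm carry it. Mouse ES cells in 2i are known for low methylation over the whole genome. An intermediate level in a library describes a mixture of methylated and unmethylated molecules.

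The following stretches carry 2 kinds of single-line gain that are described below. They were chosen after their values were seen. All are read from RefSeq promoter windows (250 bases before to 50 after the gene's start, assembly GRCm38.p6, the assembly of the mm10 files), are printed 5′ to 3′ on the strand of the gene, and have in capitals each CpG that holds a single-line gained cytosine. The first pair are runs in which several gained cytosines lie side by side. Lep, chr6:29059995-29060059 on the plus strand, was gained in DKO replicate 3, and Zfp951, chr5:104860158-104860205 on the minus strand, in WT replicate 1. Both lie outside the gene record.
Lep: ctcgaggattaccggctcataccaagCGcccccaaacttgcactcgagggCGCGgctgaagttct
Zfp951: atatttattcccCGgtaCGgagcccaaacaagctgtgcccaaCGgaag
The second pair are stretches with many CpGs before a gene in which 1 cytosine was gained and the other 13 of the 14 measured stayed under 10% in the same line. Sox14 and C1ql3 have 17 and 18 CpGs there, 34 and 36 cytosines over both strands, so most were not among those measured. A CpG in lower case is thus not always an unmethylated one. Sox14, chr9:99876208-99876388 on the minus strand, belongs to DKO replicate 2, and C1ql3, chr2:13010888-13011098 on the minus strand, to WT replicate 1.
Sox14: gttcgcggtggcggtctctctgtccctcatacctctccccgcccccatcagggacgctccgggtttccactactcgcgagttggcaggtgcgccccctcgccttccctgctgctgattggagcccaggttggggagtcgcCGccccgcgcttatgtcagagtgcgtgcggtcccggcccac
C1ql3: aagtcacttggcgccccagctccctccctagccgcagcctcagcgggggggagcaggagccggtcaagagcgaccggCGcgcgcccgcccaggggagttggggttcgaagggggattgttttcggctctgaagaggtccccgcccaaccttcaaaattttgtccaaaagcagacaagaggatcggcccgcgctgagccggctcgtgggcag
Around single gained cytosines at Hsf5 (chr11:87616977-87617006, plus strand, DKO replicate 1), Tmem44 (chr16:30550533-30550562, minus strand, DKO replicate 3), Pacsin3 (chr2:91256591-91256620, plus strand, WT replicate 1) and Kcnk2 (chr1:189343568-189343597, minus strand, WT replicate 2), the 30 bases were as follows.
Hsf5: ggttctggaaggcaCGcgaaggtagccttg
Tmem44: cgaggctggggagcCGcgcggtccgggaac
Pacsin3: gaaaggtcggagagCGacaaagctcacagc
Kcnk2: acggagccaagggcCGagcgcacccagggc
At Slc30a3 and Tuba3b, different lines gained different CpGs of the same promoter window. The Slc30a3 sites are chr5:31108304-31108333 (DKO replicate 1) and chr5:31108235-31108264 (WT replicate 1), both on the minus strand. The Tuba3b sites are chr6:145615940-145615969 (DKO replicate 2) and chr6:145615972-145616001 (WT replicate 1), both on the plus strand.
Slc30a3 site of DKO replicate 1: ggaaactgcgcttgCGcactttgtagggga
Slc30a3 site of WT replicate 1: gcccatattgggccCGgaacttttgtcgct
Tuba3b site of DKO replicate 2: gcctgcccccgagaCGctctggactaatga
Tuba3b site of WT replicate 1: atccagggagaaagCGttaagtacccggag

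All 5 lines had such cytosines. DKO replicate 1 held 282 (0.124% of the common cytosines), DKO replicate 2 held 333 (0.146%) and DKO replicate 3 held 300 (0.132%). WT replicate 1 held 581 (0.255%) and WT replicate 2 held 160 (0.0702%). The 3 DKO counts thus lay between those of the 2 WT lines, and WT replicate 1 had more than any other line. The mean level over all common cytosines was 5.10%, 7.22% and 5.05% in DKO replicates 1, 2 and 3, and 8.06% and 4.11% in WT replicates 1 and 2. WT replicate 1 was highest and WT replicate 2 lowest on both measures, and WT replicate 2 also had the lowest passage number. The part of mean level and passage in the counts was not tested.

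**Figure D1:**
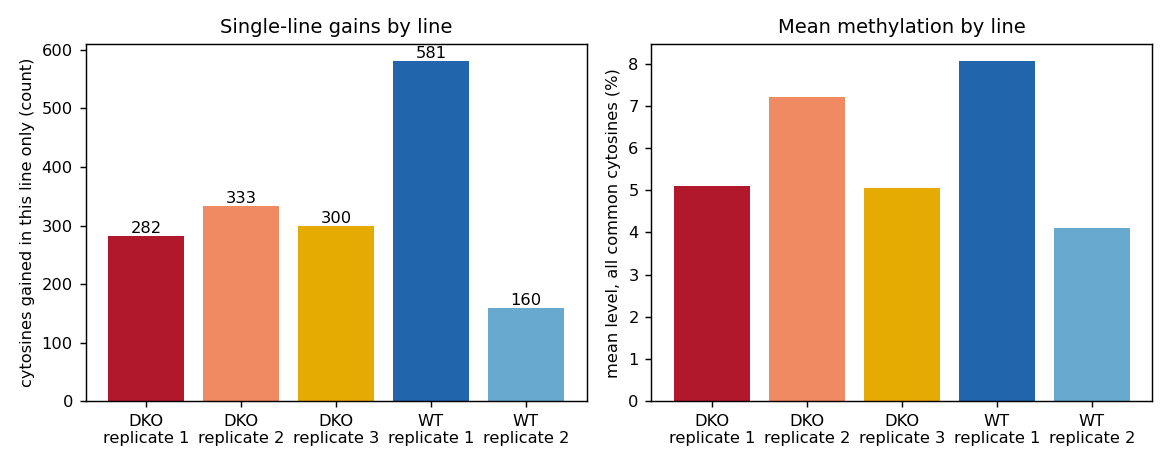
Number of cytosines gained in 1 line only (left, count) and mean methylation level over the 227992 common cytosines (right, %), for 3 DKO and 2 WT lines, 1 library each. WT replicate 1 is highest in both panels, with 581 cytosines and 8.06%, and WT replicate 2 lowest, with 160 cytosines and 4.11%.

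Most cytosines at 50% or more in a line were not low in all the others. Among cytosines under 10% in round spermatids, DKO replicates 1, 2 and 3 had 1225, 1670 and 1421 at 50% or more, whatever the other lines showed, and WT replicates 1 and 2 had 2308 and 809. The single-line cytosines were 23.0%, 19.9% and 21.1% of these in the DKO lines, and 25.2% and 19.8% in the WT lines. With the remaining lines under 10%, 339 cytosines were gained in exactly 2 lines, 119 in 3, 35 in 4 and 13 in all 5. The pair DKO replicate 2 and WT replicate 1, which share the name OG3, had 97 cytosines gained in exactly these 2 lines. The pair DKO replicate 3 and WT replicate 2, which share the name AGH-2, had 18. The other 8 pairs had between 9 and 47. WT replicate 1 also had the most gains of any line, and the part of the shared name was not tested.

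Levels in the gained line gathered at both ends of the allowed range. Their median was 65.4%, 63.2% and 73.7% in DKO replicates 1, 2 and 3, and 69.4% and 63.6% in WT replicates 1 and 2. Of the 1656 cytosines, 544 (32.9%) lay between 50% and 60%, 331 (20%) between 70% and 90%, and 418 (25.2%) at 90% or more. Every read was methylated at 257 (15.5%): 48, 38 and 62 in DKO replicates 1, 2 and 3, and 98 and 11 in WT replicates 1 and 2. All other 5 files read exactly 0 at 671 of the cytosines (40.5%). The Wilson 95% interval of the gained line lay above 50% at 1233 cytosines. At 854 (51.6%) the intervals of the other 5 files also lay under 10%.

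**Figure D2:**
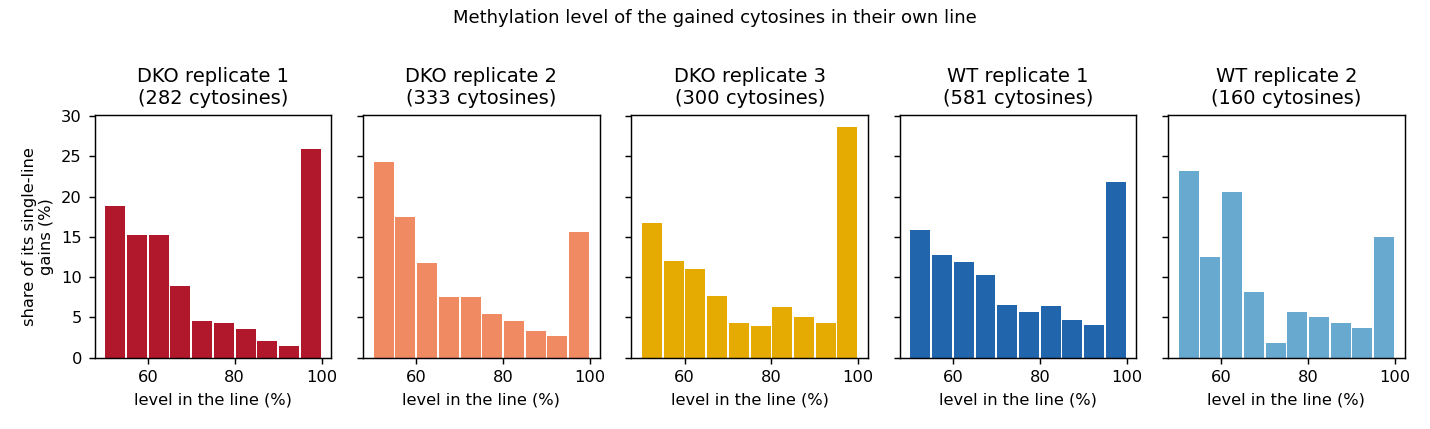
Share of a line's single-line gained cytosines (%) by their methylation level in that line, in steps of 5 percentage points from 50% to 100%. In each line the lowest or the highest step is the fullest, with medians from 63.2% in DKO replicate 2 to 73.7% in DKO replicate 3.

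The threshold cut through a continuous range. The lowest level inside the rule was 50% and the highest just outside it was 49.9%. With the other conditions kept, 313 cytosines had a gained level from 50% to 55% and 332 from 45% to 50%. The highest level among the other 5 files was from 8% to 10% at 85 cytosines inside the rule, and from 10% to 12% at 103 outside it. Depth at the gained cytosines was lower than elsewhere in every file. The median in the gained line was 228, 163 and 207 reads in DKO replicates 1, 2 and 3, and 214 and 190 in WT replicates 1 and 2. Over all common cytosines it was 390, 374 and 364 in the DKO lines, and 430 and 434 in the WT lines. In round spermatids the medians were 323 reads at the gained cytosines and 511 at all common cytosines. The part of depth in the selection was not tested.

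The gained cytosines were mostly isolated. Another cytosine gained in the same line lay within 200 bp of 197 (11.9%, Wilson 95% interval 10.4 to 13.5%). One gained in a different line lay within 200 bp of 156 (9.42%). Of common cytosines 93.4% had another common one that near, but they are a far larger and denser set, so these shares cannot be compared directly. Of the 339 cytosines gained in exactly 2 lines 6.49% had another of their kind within 200 bp. For the 167 gained in 3 or more lines the share was 12%. These sets also differ in size. The 197 fell into 92 clusters, with 13, 16 and 15 in DKO replicates 1, 2 and 3, and 41 and 7 in WT replicates 1 and 2. Of these clusters 80 were pairs, 11 had 3 cytosines and 1 had 4. The clusters were short, with a median span of 22 bp and 85 of 92 under 50 bp. In 65 clusters (70.7%) the levels differed by less than 5 percentage points, and in 72 (78.3%) the read counts differed by at most 5%, so the cytosines of a cluster can have been read on the same molecules and are not separate measurements.

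The 12 clusters of 3 or more spanned 22 to 37 bp. Within them lay 45 common cytosines, of which 37 were gained in the line and 8 were not, 5 of these under 1%. The cluster at Lep, which encodes the fat-cell hormone leptin, was the one at 100% throughout its span and ended 174 bp before the gene record. Its cytosines at positions 29060021, 29060039, 29060045 and 29060047 of chromosome 6 were all at 100% of 226 reads in DKO replicate 3 (98.3 to 100%). DKO replicate 1 and WT replicate 1 had 0 at all of them on at least 198 reads, which allows up to 1.52%. DKO replicate 2 had 6.50%, 0%, 3.64% and 2.17% of about 277 reads. WT replicate 2 had 0%, 17.0%, 0% and 0% of at least 397 reads, so the second position missed the rule. Round spermatids had 0 of 466 to 468 reads. DKO replicate 3 alone was high, and DKO replicate 2 and WT replicate 2 showed low levels at some of these positions.

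In DKO replicate 1, the cluster inside Isl2, a LIM-homeodomain transcription factor of motor neurons, covered positions 55539935 to 55539962 of chromosome 9. Its 3 cytosines were each at 95.8% of 96 reads in DKO replicate 1 (89.8 to 98.4%). DKO replicate 2 had 0 of 23 to 31 reads, which allows up to 13%. DKO replicate 3 had 0 of 106 reads, WT replicate 1 had 0 of at most 193, WT replicate 2 had 0 of 117 and round spermatids had at most 0.357% of 280. In this cluster only DKO replicate 1 was methylated, with the weakest limit in DKO replicate 2. A further cytosine in Isl2 or within 1 kb of it was gained in WT replicate 1. The other cluster of DKO replicate 1 lay at positions 117387145 to 117387181 of chromosome 12, 108978 bp from Ptprn2, the nearest named gene. It read 77.1%, 59.3%, 0% and 59.3% in order on 801 or 802 reads in DKO replicate 1, and at most 0.0757% in the other 5 files. An unmethylated cytosine thus stood between methylated ones on the same number of reads.

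Such an unmethylated position recurred in DKO replicate 2. Inside Gfod2, at positions 105717462, 105717465, 105717477 and 105717486 of chromosome 8, DKO replicate 2 had 50.9%, 0.429%, 50.4% and 50.4% of 466 reads. DKO replicate 3 had the reverse, 0%, 98.6%, 0% and 0% of at least 732 reads. The highest level among the other files at these positions was 3.96%, in WT replicate 1. The second position is itself a single-line gain, of DKO replicate 3, so neighbouring cytosines were gained in different lines. Inside Neurl1b, a ubiquitin ligase related to the fly Notch regulator neuralized, 6 cytosines at 26431849 to 26431873 of chromosome 17 had 63.6%, 75.3%, 0%, 15.6%, 11.7% and 71.4% of 77 reads in DKO replicate 2. The other lines had 0 at all 6 on at least 132 reads, which allows up to 2.27%, and round spermatids had at most 3.51%.

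In DKO replicate 3, the second cluster lay inside Fndc7, a gene for a protein with fibronectin type III domains, at 108880763 to 108880799 of chromosome 3. It had 67.5%, 67.5% and 83.1% of 379, 379 and 307 reads in DKO replicate 3, and at most 0.223% elsewhere. WT replicate 1 had 5 of the 12 clusters. Hoxb5, a homeobox gene of the body axis, and its overlapping record Hoxb5os share one at 96305008 to 96305029 of chromosome 11. There WT replicate 1 had 100%, 0%, 100% and 100% of 226 reads. The highest value elsewhere was 0.685% of 146 reads in DKO replicate 3, and the 0 of WT replicate 2 rests on 13 reads and allows up to 23.1%. Inside Rgl3, of the guanine nucleotide exchange factors for Ral, positions 21989410 to 21989440 of chromosome 9 had 53.3%, 0%, 53.6% and 53.3% of 350 or 351 reads in WT replicate 1. All other files had 0 there, on at least 81 reads, which allows up to 3.70%. In both clusters 1 cytosine at 0 stood between methylated ones in WT replicate 1.

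The cluster before Zfp951, a zinc-finger gene, had 58.5%, 58.6% and 58.3% of 425 to 427 reads in WT replicate 1 (53.6 to 63.2%). DKO replicates 1 and 3 had 0 of 271 and 511 reads, DKO replicate 2 at most 0.448%, WT replicate 2 at most 0.308% and round spermatids at most 0.185%. The cluster 261 bp outside Mocs2, an enzyme of molybdenum cofactor synthesis, at 114817873 to 114817899 of chromosome 13 had 68.3%, 68.2% and 68.3% of 258 or 259 reads in WT replicate 1 and 0 in all other files. Inside Adra1a, the alpha-1A adrenergic receptor, positions 66638194 to 66638224 of chromosome 14 had 57.6%, 57.3% and 87.9% of 164 or 165 reads in WT replicate 1, and elsewhere at most 3.45%, in DKO replicate 3. WT replicate 2 had the 1 cluster of 4 cytosines, inside the zinc-finger gene Zfp775 at 48620190 to 48620217 of chromosome 6. All 4 were at 50% of 188 to 190 reads in WT replicate 2 (42.9 to 57.1%), just inside the rule, and the other 5 files had at most 0.730%. Another cytosine in Zfp775 or within 1 kb of it was gained in DKO replicate 2.

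**Figure D3:**
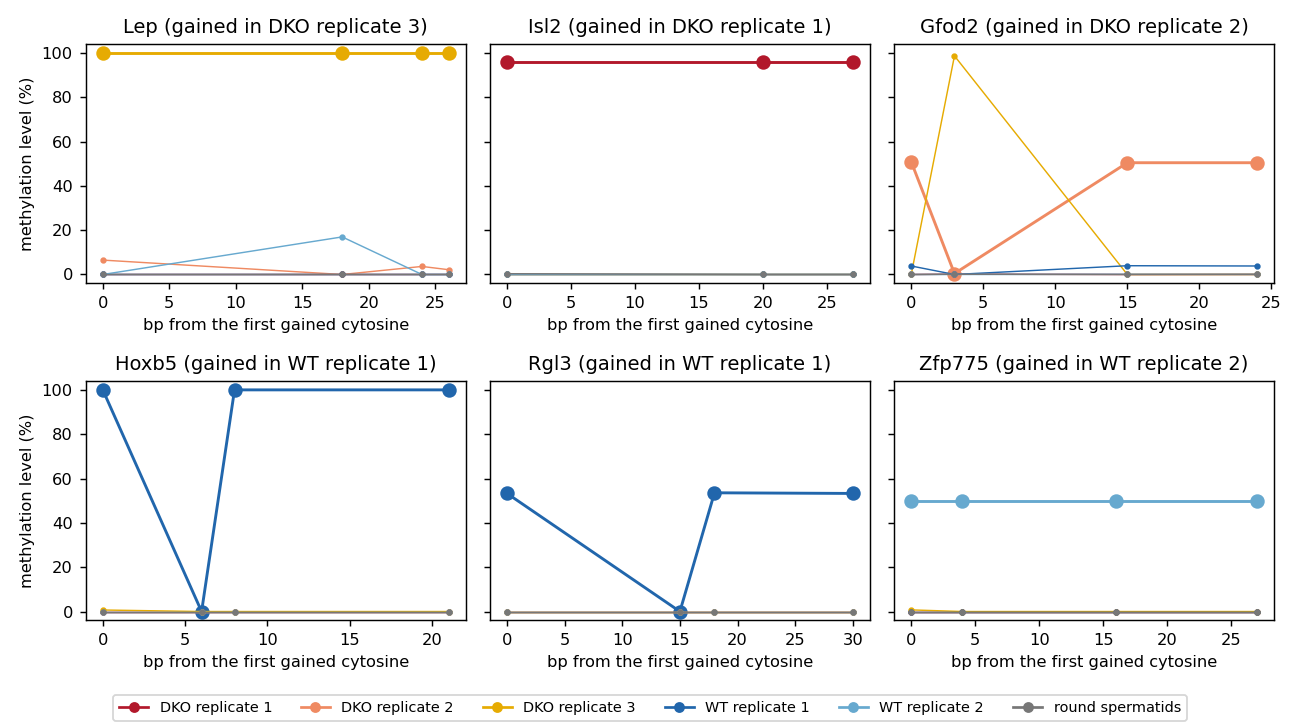
Methylation level (%) at the common cytosines of 6 clusters against distance (bp) from the first gained cytosine, with large points for the line in which the cluster was gained and small points for the other 5 files. The Lep, Isl2 and Zfp775 clusters are level in their line at 100%, 95.8% and 50%, while at Gfod2, Hoxb5 and Rgl3 1 position of the line is at or near 0%.

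No tile dense in measured cytosines became methylated in one line only. Of 5911 tiles of 500 bp with at least 10 common cytosines, 0 (0%) had a level of 50% or more from summed reads in 1 line and under 10% in the other lines and round spermatids. With at least 5 cytosines there were 3 of 14972 tiles (0.02%), and with at least 3 there were 16 of 26417 (0.0606%). Of the 16, 2, 1 and 3 belonged to DKO replicates 1, 2 and 3, and 10 and 0 to WT replicates 1 and 2. Dense tiles held 236 of the gained cytosines (14.3%), against 38.8% of the common ones. A dense tile held at most 3 cytosines gained in the same line, in 1 tile. With all other files under 10%, 56 dense tiles had a line at 10% or more, 2 at 20% or more and 0 at 30% or more. The highest lay in the pseudogene Vhl-ps1 (chr17:37164501-37165000), with 29.7% in WT replicate 1 and 4.21%, 8.62%, 4.80% and 5.66% in DKO replicates 1, 2 and 3 and WT replicate 2, against 2.35% in round spermatids. At Fzd7, a Wnt receptor (chr1:59484001-59484500), WT replicate 1 had 19.8% and the other lines between 3.08% and 7.99%, against 0.0300% in round spermatids. In the Hoxd3 tile (chr2:74736001-74736500) of 17 cytosines, DKO replicate 2 had 17.4%, the other lines between 2.77% and 7.07%, and round spermatids 1.30%. None of these 3 tiles reached 30% in any line.

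The 3 tiles with 5 or more cytosines were those of Lep, Hoxb5 and a stretch 7143 bp from Tex19.1. These and the other tiles below were named after their values were seen. At Lep (chr6:29060001-29060500) the 5 cytosines had 99.9% in DKO replicate 3. DKO replicates 1 and 2 had 0% and 4.39%, WT replicates 1 and 2 had 7.25% and 4.03%, and round spermatids 0.0459%. This tile was methylated at every measured cytosine of its line, from 99.6% to 100%. The 74 methylated reads of WT replicate 1 all fell on the fifth cytosine, since this line had 0 at the 4 of the cluster. That cytosine missed the rule. It was methylated in WT replicate 1 too and held methylated reads in DKO replicate 2, so it was not particular to DKO replicate 3. At Hoxb5 (chr11:96305001-96305500) WT replicate 1 had 50.04%, with cytosines from 0% to 100%, and no other file passed 0.114%. Near Tex19.1 (chr11:121138501-121139000) WT replicate 1 had 68.3%, while DKO replicate 3 had 9.44%, close to the limit of 10%. Only 1 of the 5 cytosines of this tile was at 50% or more in WT replicate 1, with levels from 0% to 100%.

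Among the tiles of 3 or 4 cytosines, DKO replicate 1 had 71.9% at Isl2, and 0% in all other lines. DKO replicate 3 had 66.7% at Hoxa9, a homeobox gene of the posterior axis, where WT replicate 2 had 8.38% and the other lines 0%. DKO replicate 2 had 51.6% at Kcnip1, a potassium channel subunit, where WT replicate 1 had 7.91%. WT replicate 1 had 78.2% at Zfp608, 75% at Atrnl1, 73.8% at Pdha2, the testis form of a pyruvate dehydrogenase subunit, and 57.1% at Grip1, a scaffold protein of synapses. Of these 4 tiles only that of Grip1 was at 0% in every other file. The Pdha2 tile had 8.62% in WT replicate 2, that of Atrnl1 had 8.08% in DKO replicate 2 and 7.95% in DKO replicate 3, and that of Zfp608 had 7.15% in WT replicate 2.

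Over all lines together, cytosines 2 to 50 bp from a gained one had a higher mean level in the gained line than in the other lines. Common cytosines at 2 to 10 bp had a mean level of 15.5% in the gained line and 4.16% in the other lines, against 4.31% in round spermatids. At 26 to 50 bp the gained line had 12.5% and the other lines 4.99%, and at 51 to 100 bp they had 6.03% and 5.01%. For gains of WT replicate 1 the values were 8.85% against 5.18% at 51 to 100 bp and 8.08% against 4.85% at 101 to 200 bp. Over all common cytosines, however, WT replicate 1 had a mean of 8.06% and the other lines 4.11% to 7.22%. The part of this higher mean in the difference was not tested. The common cytosines near a gained one include other gained ones. Cytosines that lacked 10 reads in some file, which the rule never used, gave 21.5% in the gained line and 3.48% in the other lines at 2 to 10 bp, and 19.7% and 6.71% at 11 to 25 bp. By 51 to 100 bp they had 7.73% in the gained line and 6.41% in the other lines, and for gains of DKO replicate 2 alone 10.5% and 3.86%. Common cytosines at that distance from gains of DKO replicate 2 had 4.95% in this line and 5.24% in the other lines. The raised mean within 50 bp came from a minority of the neighbours. Of 1383 gained cytosines with a common neighbour within 50 bp, 418 (30.2%) had one at 50% or more in the same line and 720 (52.1%) had all of them under 10%.

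**Figure D4:**
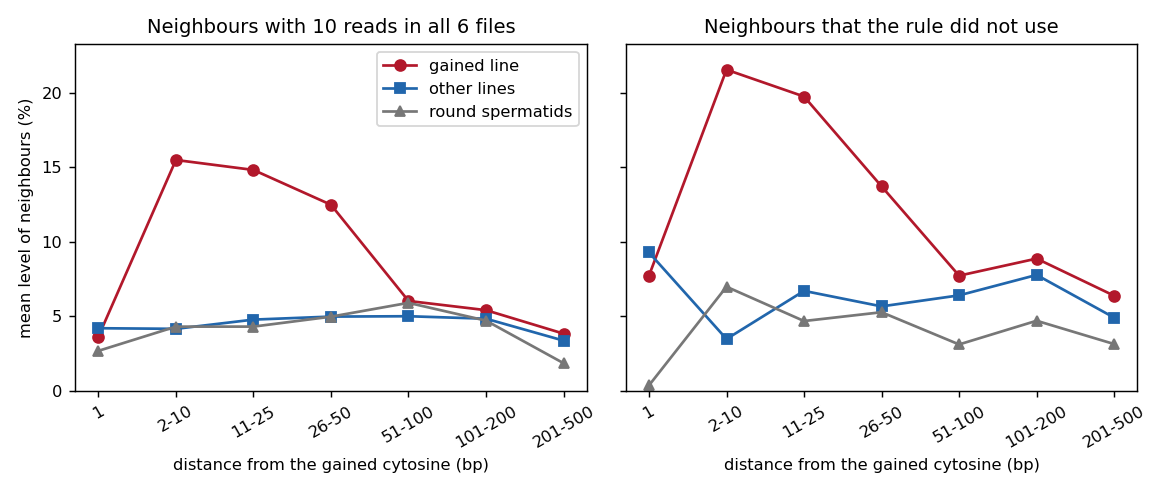
Mean methylation level (%) of neighbouring cytosines by distance (bp) from the gained cytosine, in the gained line, the mean of the other lines and round spermatids, for common cytosines (left) and for cytosines with at least 10 reads in the gained line but not in all files (right). The gained line stands above the others from 2 to 50 bp, with 15.5% against 4.16% at 2 to 10 bp on the left and 21.5% against 3.48% on the right.

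Neighbours covered by nearly the same number of reads, within 5%, can lie on the same fragment. Of 2453 such pairs within 50 bp, 18.5% of the neighbours were at 50% or more in the gained line and 74.3% were under 10%. Of 1575 pairs with other read counts, 8.38% were at 50% or more and 74.5% under 10%. Over all common cytosines low in round spermatids, 0.872% of levels in a line were at 50% or more. The neighbours were not limited to cytosines low in round spermatids, so their shares cannot be compared directly with this one. Where the positions are CpG cytosines, one 1 bp away is the other strand of the same CpG or belongs to the next CpG of a CGCG. There were 71 such positions with at least 10 reads in the gained line, of which 57 (80.3%) were under 2% and 2 were at 50% or more. The means at this distance, over 25 common positions, were 3.64% in the gained line and 4.20% in the other lines. Over the 46 positions that the rule did not use they were 7.73% and 9.28%. Strand is not given beside the positions, so the share of opposite strands is not known. What set the levels of adjacent positions apart was not tested.

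The gained cytosines lay more often in tiles with few common cytosines, and farther from genes, than the common ones did. Such tiles can be poor in CpG or poorly covered, which cannot be told apart here. The gained cytosines fell within gene records at 70.5% and within 1 kb of a gene at 6.46%, against 78.7% and 9.34% of the common cytosines. Over 1 kb from any gene lay 23.1%, against 12%. Tiles with only 1 or 2 common cytosines held 30.1% of the gained cytosines, against 18.4% of the common ones. Promoter windows held 84 (5.07%), against 14.8%. The shares over the common cytosines low in round spermatids, which the rule required, stood farther off, with 6.16% over 1 kb from a gene, 7.54% in tiles of 1 or 2, 51.4% in dense tiles and 19.6% in promoter windows. Cytosines gained in exactly 2 lines went further the same way, with 3.54% in dense tiles and 31.3% over 1 kb from a gene. Those gained in 3 or more lines had 0% in dense tiles and 31.7% over 1 kb from a gene. By chromosome the gained share ran from 0.526% of the common cytosines on chromosome 16 to 0.906% on chromosome 18. Between lines, dense tiles held 13.1% to 16% of the gained cytosines and gene records 67.5% to 72.1%. Promoter windows held 3.19%, 4.20% and 6.67% in DKO replicates 1, 2 and 3, and 6.37% and 2.5% in WT replicates 1 and 2, on 4 to 37 cytosines a line.

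**Figure D5:**
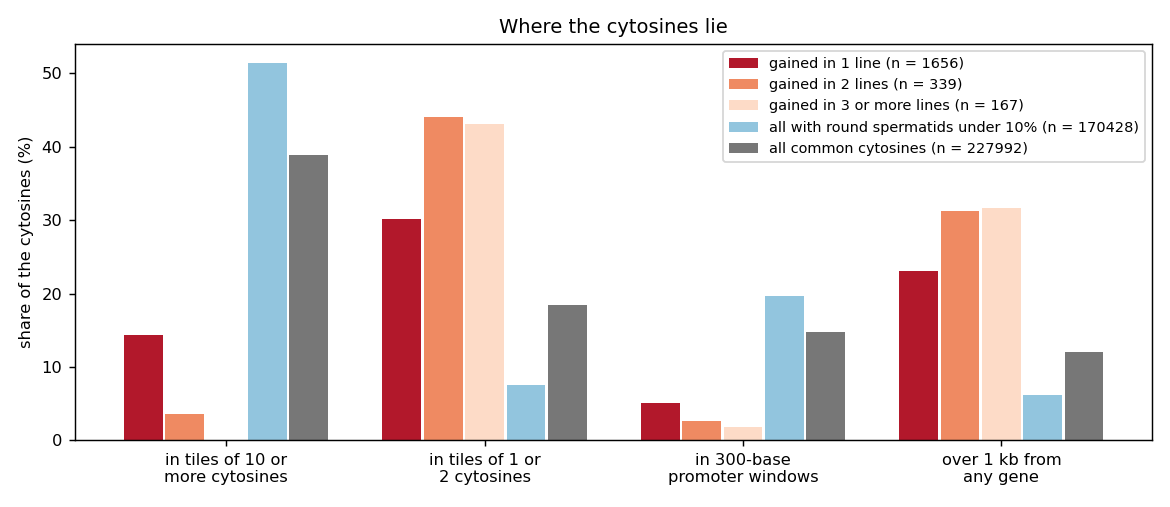
Share of cytosines (%) in tiles of 10 or more common cytosines, in tiles of 1 or 2, in promoter windows and over 1 kb from any gene, for cytosines gained in 1 line, in 2 lines and in 3 or more lines, beside those low in round spermatids and all common cytosines. Dense tiles hold 14.3% of the single-line gains against 38.8% of all common cytosines.

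All 84 positions in promoter windows were CpG cytosines by the RefSeq sequence. Of 83 with full context, 29 (34.9%, Wilson 95% interval 25.6 to 45.7%) were the CpG of an MspI site, CCGG read on either strand, against 3808 of 33410 common cytosines in such windows (11.4%). What part the enzyme's sites play in these levels was not tested. The 84 cytosines lay in windows of 77 genes, 9, 14 and 20 of them in DKO replicates 1, 2 and 3, and 37 and 4 in WT replicates 1 and 2. Of 77 combinations of a window and a line with at least 3 common cytosines, the summed level was 50% or more in 4 and under 25% in 60, with a median of 11.1%. Overlapping windows of a gene were counted separately. The 4 were those of Lep, of Tuba3b in WT replicate 1 and of Zfp951, which entered with overlapping windows over the same cytosines, each at 54.8%. The Lep window was the highest of the 4, at 99.9% over 5 cytosines, 1 of them also methylated in WT replicate 1. Whole promoters were thus seldom methylated where a promoter cytosine was gained.

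Sox14, a transcription factor of the SRY-box family in the brain, had 1 cytosine gained 77 bp before its start. It was at 100% of 178 reads in DKO replicate 2 (97.9 to 100%). DKO replicates 1 and 3 had 0.735% of 408 and 0 of 209 reads, WT replicates 1 and 2 had 0 of 359 and 0.136% of 735 reads, and round spermatids 0.133% of 3746. Only DKO replicate 2 was high, and its whole window of 14 cytosines had 7.44%. At C1ql3, a secreted synaptic protein, the cytosine 157 bp before the start was at 95.8% of 286 reads in WT replicate 1 (92.8 to 97.6%). It was 0 in all other files, on 96 to 398 reads, which allows up to 3.12%. The window of C1ql3 had 11.6% in WT replicate 1. In both promoters a fully or almost fully methylated cytosine stood in a window that was otherwise under 10% at each measured position.

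Hsf5, a heat shock factor family gene of the testis, had a cytosine at 100% of 201 reads in DKO replicate 1, and 0 in the other 5 files on at least 54 reads. Tmem44 had one at 100% of 136 reads in DKO replicate 3, and 0 elsewhere on at least 441 reads. Pacsin3, an adaptor of endocytosis, had one at 100% of 223 reads in WT replicate 1, and 0 elsewhere on at least 55 reads. At each of these only the gained line had a methylated read. Kcnk2, a background potassium channel, had one at 67.6% of 170 reads in WT replicate 2, 0.787% of 127 reads in WT replicate 1 and 0 in the 3 DKO lines and round spermatids. The windows of Hsf5, Tmem44, Pacsin3 and Kcnk2 had 6.70%, 16.3%, 4.26% and 6.59% in the gained line, over 12, 8, 8 and 11 cytosines. In the Hsf5 window 2 of the 12 were at 50% or more in DKO replicate 1, and in each of the other 3 windows 1 was.

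Slc30a3, the zinc transporter of synaptic vesicles, was gained at 2 CpGs 70 bp apart in different lines. Both CpGs also lie in the promoter window of Dnajc5g on the opposite strand, so they are not particular to Slc30a3. DKO replicate 1 had 79.6% of 583 reads at position 31108319 of chromosome 5, where the other 5 files had 0 on at least 276 reads. WT replicate 1 had 75.5% of 143 reads at position 31108249, where the other files had at most 0.388%. Tuba3b, an alpha-tubulin gene, had 58.0% of 262 reads in DKO replicate 2 at position 145615955 of chromosome 6 and 100% of 80 reads in WT replicate 1 at 145615987, with 0 in all other files at both. Each of these lines was at or near 0 at the position gained in the other. The third common cytosine of the Tuba3b window was at 50% or more in both lines, so that 2 of the 3 were at this level in each, and the window had 38.4% in DKO replicate 2 and 67.5% in WT replicate 1.

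Of 19456 measured genes, those with a common cytosine in the gene or within 1 kb, 1279 (6.57%) held at least 1 gained cytosine. Among developmental regulators, 27 of 101 measured genes did, with 35 of 2670 cytosines. That is 1.37% of the list's 2556 cytosines low in round spermatids, against 0.719% over protein-coding genes, and the list's genes have more measured cytosines each than most. These 27 genes are spread over all 5 lines, and most have 1 gained cytosine. Tbx5, a T-box factor of heart and forelimb, was the only one with 3 in a line. In WT replicate 1 its positions 119831598, 119837392 and 119837493 of chromosome 5 had 54.7% of 289, 52.8% of 72 and 75.6% of 855 reads. The other lines were at 0.365% or less there, and round spermatids at 0.285% or less, though some zeros rest on 25 to 32 reads and allow up to 12%. A further Tbx5 cytosine, 119796569, had 100% of 843 reads in DKO replicate 3, 3.05% of 197 in WT replicate 1, 0 in the other lines and 0 of 398 in round spermatids, with only 16 reads in DKO replicate 1. So 2 lines had gains at Tbx5, at different positions, and the list was written with Tbx5 known from these data.

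Several other developmental regulators had a cytosine near 100%. Pax2, a paired-box factor of kidney and eye, had 98.3% of 293 reads in WT replicate 1 and 0 in all other files on at least 53 reads, and a further cytosine at 51.4% of 214 reads in the same line. Tlx1, a homeobox gene of the spleen, had 100% of 113 reads in DKO replicate 3, 5.64% in WT replicate 2 and 0 in the other files. Gata3 is a zinc-finger factor of T cells and other tissues, and Six3 a homeobox gene of the forebrain. Gata3 had 100% of 252 reads in DKO replicate 1 and 0 in all other files on at least 84 reads. Six3 had 99.5% of 211 reads in DKO replicate 1 and 0 in all other files on at least 140 reads. Lhx5, a LIM-homeobox gene of the forebrain, had 2 cytosines, gained in different lines. One had 99.5% of 600 reads in WT replicate 2 and at most 0.223% elsewhere, and the other had 94.8% of 516 reads in WT replicate 1 and at most 0.685%, in round spermatids. Nkx2-2, a homeobox gene of the ventral spinal cord, had 66.6% of 290 reads in DKO replicate 1 and 100% of 118 reads in WT replicate 2, at positions 27 bp apart (147188239 and 147188266 of chromosome 2). WT replicate 1 had 7.75% at the position gained in DKO replicate 1, and only 10 reads at the other. At Lhx5 and Nkx2-2 the line gained at 1 position was at or near 0 at the other.

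Among germline genes, 6 of 16 measured genes held 1 gained cytosine each, 6 of 172 cytosines. That is 4.03% of the list's 149 cytosines low in round spermatids, against 0.719% over protein-coding genes. They were Dazl and Mael, regulators of germ-cell RNA, Piwil2, a PIWI protein, Stag3 and Hormad2, proteins of meiotic chromosomes, and Rpl10l, a testis ribosomal protein. Piwil2 had 100% of 72 reads in DKO replicate 1, and Dazl had 52.9% of 924 reads in DKO replicate 3. Dazl had at most 0.0542% in the other 5 files, and Piwil2 at most 0.478%. Clustered protocadherins, cell-surface proteins of neurons whose gene records overlap, had 8 distinct gained cytosines among 203, counted at 13 of 24 measured genes, which is 4.23% of their 189 cytosines low in round spermatids. At the alpha cluster, all 3 were gained in WT replicate 1, with 100% of 111, 87.7% of 301 and 87.7% of 301 reads, and no other file passed 0.375%. At the gamma cluster 4 were gained, 2 in DKO replicate 3 with 92.8% of 223 and 67.2% of 926 reads, 1 in DKO replicate 2 with 50% of 70 and 1 in WT replicate 2 with 86.0% of 57. The gains in the gamma cluster were thus spread over 3 lines. Pcdha1 and Pcdha2 held all 3 alpha cytosines, and Pcdhga1, Pcdhga4 and Pcdhgb1 all 4 gamma cytosines, while Pcdhga8 and Pcdhgb4 held 3.

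In the other lists the share of genes with a gained cytosine is to be read beside the 6.57% over all measured genes. Of imprinted genes 3 of 34 measured (8.82%) had 1 gained cytosine each. Igf2, the paternally expressed growth factor beside the labelled H19 DMR deletion, had 53.5% of 540 reads in DKO replicate 1, 0 and 0.211% in DKO replicates 2 and 3, and 0 in both WT lines and round spermatids. Magel2 had 99.6% of 280 reads and Zdbf2 had 62.3% of 284 reads in DKO replicate 3, with at most 0.556% elsewhere. The other DKO lines were at or near 0 at all 3. Of pluripotency genes 1 of 18 (5.56%) had a gained cytosine, of housekeeping genes 1 of 17 (5.88%), of spermatid genes 1 of 10 (10%) and of tumour suppressor and cell cycle genes 1 of 17 (5.88%), the last being Cdkn2a with 91.3% of only 23 reads in WT replicate 1. Feeder fibroblast genes had 0 among 160 cytosines of 11 genes, and genes of the DNA methylation machinery 0 among 156 cytosines of 9 genes. These lists have 96 and 108 cytosines low in round spermatids, too few to tell 0 from the 0.719% over protein-coding genes. Whether feeder DNA or spermatid DNA was present in a library cannot be read from these counts and was not tested.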

How the data were processed

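Genomic DNA of 3 DKO and 2 WT AG-haESC lines and 1 round spermatid sample was measured by RRBS (MspI, gel selection, bisulfite and PCR, per the labels' protocols). Bismark 0.12.2 and the mm10 build are named in the submitters' processing notes. Nothing used here states how reads were trimmed or whether duplicates were removed. For each position the authors deposited the methylated and the unmethylated read count, and beside them the level as a fraction, per the file headers. Levels were recomputed from the counts, and the deposited fraction matched within 1e-09. Read counts summed over all positions ran from 197728785 in DKO replicate 3 to 293920118 in round spermatids. A read that covers several cytosines is counted at each, so these sums are not numbers of reads in a library.

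The rule was applied in Python 3.11.15 with pandas 2.3.3 and numpy 2.4.6. Its code was checked on simulated counts with gains planted far above the limit over a low background. That check does not cover levels near the limits. Tiles were 500 bp, with levels from summed reads. Clusters join cytosines gained in the same line at most 200 bp apart. A neighbour had at least 10 reads in the gained line, and each other file entered its mean only with 10 reads. Wilson intervals use 95%, and a count of 0 allows 3 reads of the total. Gene records and promoter sequences come from RefSeq GRCm38.p6. Exons and introns were not assigned. Distances of clusters and tiles are to the nearest named gene record, with Gm, LOC, Rik and Mir symbols left out. No test was made, since the levels chose the members. The members and lists were chosen with earlier results of these data known. Genes named by rule were those of dense single-line tiles (there were none), of the longest cluster of each line, and list genes with 3 or more gained cytosines. All others were chosen after their values were seen. Alternatives were other coverage minimums, level limits, tile and cluster sizes, no condition on round spermatids, chromosome X added and each line left out.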

Additional observations from a re-analysis of the deposited data

How the results depend on the processing

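Of the recomputed values 81 stayed within 1.5 times the count, or within the interval of the share, and 41 moved. With at least 50 reads in all files, 998 cytosines were left (176, 208 and 196 in DKO replicates 1, 2 and 3, 333 and 85 in WT replicates 1 and 2), and the share with another of the same line within 200 bp was 13.9%. With a gained level of at least 80%, 573 were left (93, 87 and 133 in the DKO lines, 215 and 45 in the WT lines) and the share was 7.85%. With at least 60%, DKO replicates 1 and 2 and WT replicate 2 had 186, 194 and 103, and the share was 9.53%. With at least 40%, DKO replicate 2 had 548 and WT replicate 2 had 265. With the other files under 20%, the share was 15.4%. Without the condition on round spermatids there were 4197 (630, 960 and 712 in the DKO lines, 1538 and 357 in the WT lines). With tiles of at least 5 cytosines, 3 tiles were found in place of 0. WT replicate 1 had the most and WT replicate 2 the fewest with 50 reads, with 80% and without the condition on round spermatids.

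Leaving out each line in turn lets cytosines that it shared count as single. The total then ran from 1845 to 2040, the share from 13.7% to 15.3%, and dense tiles stayed at 0. DKO replicate 1 had 331 to 456, DKO replicate 2 had 448 to 635, DKO replicate 3 had 378 to 495, WT replicate 1 had 751 to 937 and WT replicate 2 had 219 to 259. Moves over 1.5 times were DKO replicates 1, 2 and 3 and WT replicate 2 without WT replicate 1, DKO replicate 2 without DKO replicate 1 (512) or DKO replicate 3 (504), and both WT lines without DKO replicate 2 (937 and 254). No paired analysis was possible because no value comes from a test, and the numbers of the WT lines follow the order of the samples and not the labels. Each line is 1 library, strand is not given, and cytosines read on the same fragment are not independent. Zeros on few reads, such as 13 at Hoxb5, allow sizeable levels.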

Other observations

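On chromosome X, which the rule left out, 31 of 4848 common cytosines (0.639%) met the same conditions. DKO replicates 1, 2 and 3 had 2, 12 and 4 of them, and WT replicates 1 and 2 had 8 and 5. DKO replicate 2 thus had the most there, while WT replicate 1 had the most on chromosomes 1 to 19.

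Some genes held 4 or 5 gained cytosines. They were looked up after the values were seen. Atxn1, the gene of a neurodegeneration-linked nuclear protein, held 5 among 58 common cytosines, 2 in DKO replicate 1 and 3 in WT replicate 1. D1Pas1, a testis DEAD-box RNA helicase, held 5 among 16, 2 in DKO replicate 3 and 3 in WT replicate 2. Wnt9b, a Wnt ligand of kidney development, held 4 among 42, all in DKO replicate 1. Ryr1, the calcium release channel of skeletal muscle, held 4 among 71, 2 each in DKO replicates 2 and 3. In Wnt9b all gains belonged to a single line, and in the other 3 of these genes to a pair of lines. Further genes with as many were spread more widely. Lingo3 and Nfix held 4 each, among 67 and 101 common cytosines, in 3 lines, as did Pcdhga1 with 4 among 128. These genes are the top of 19456 measured ones, and over all common cytosines 0.726% were gained in a single line.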
